A study of Mus musculus with 2 samples.

Results

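The called islands of the ChIC-seq table that lie close together along the mouse genome were joined into chains, and the chains of 5 or more islands are described here. Nuclear islands were sorted by position, those with 200 or more peak-library reads were left out, and neighbours up to 12400 bp apart were joined, the next larger gap in the table being 12600 bp. The chains were thus chosen by where islands were called, and through the upper limit by peak-library reads. Of 19531 islands in the table, 19513 were nuclear and below that limit, and 2984 of these (15.3%) lay in 447 chains of 5 or more. In chromatin immunocleavage (ChIC-seq) an antibody, here one to the transcription factor TCF-1, brings micrococcal nuclease to chromatin, and the DNA it frees is sequenced. Libraries were made from 500 sorted lymphoid tissue inducer (LTi) cells of C57BL/6 mice each, sorted as CCR6+ CD127+ cells without lineage markers, NKp46, NK1.1 or KLRG1. One library came from Tcf7+/+ cells of Peyer's patches. The other came from Tcf7fl/fl-VavCre cells of the small intestinal lamina propria, where the Vav promoter drives Cre, and with it the loss of floxed Tcf7, in blood-forming cells at large and not in LTi cells alone. Genotype and tissue differed together, each with 1 library, so the design cannot tell them apart and no value has a replicate check. Each island comes with its reads in a library called peak and in another called control, and the header ties neither to a genotype. All comparisons are therefore between the peak and the control library.

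TCF-1, encoded by Tcf7, is an HMG-box factor that binds DNA at TCF and LEF motifs and recruits beta-catenin or Groucho repressors there, and in innate lymphocytes it is known for its part in early lineage choice. LTi cells are innate lymphoid cells that carry IL-7 receptor and surface lymphotoxin and help to build lymph nodes and Peyer's patches. Chains of neighbouring sites are a common way to describe regulatory DNA: sites joined over short gaps mark extended enhancer domains when they hold an active mark, and such domains often lie at genes that define a cell type. The gap used here is the one customary for that purpose, applied to nuclease-released fragments of 2 low-input libraries. The number and width of chains follow from where islands were called, so the membership itself is not a result.

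The promoters below are shown because a member island overlaps them, at Tcf7 only in part, and their genes are central to LTi cells. They are the lymphotoxin subunits Ltb and Lta with their neighbour Tnf, the IL-7 receptor gene Il7r, and the factors Runx1 and Tcf7. Each is a RefSeq promoter of the GRCm38.p6 assembly (the mm10 build), 250 bases before to 50 after a transcription start, written 5′ to 3′ on the strand of the gene. Capitals mark matches, on either strand, to CTTTGAT (TCF and LEF factors), TGTGGTT (RUNX factors), CCGGAAG (ETS factors), TGACTCA (AP-1) or GGGCGG (the GC box). None of these 5 words contains another. The Ltb promoter is at chr17:35194257-35194556 (plus strand), Il7r at chr15:9529827-9530126 (minus), Lta at chr17:35205302-35205601 (minus), Tnf at chr17:35201958-35202257 (minus), Runx1 at chr16:92826025-92826324 (minus) and Tcf7 at chr11:52282546-52282845 (minus).
Ltb: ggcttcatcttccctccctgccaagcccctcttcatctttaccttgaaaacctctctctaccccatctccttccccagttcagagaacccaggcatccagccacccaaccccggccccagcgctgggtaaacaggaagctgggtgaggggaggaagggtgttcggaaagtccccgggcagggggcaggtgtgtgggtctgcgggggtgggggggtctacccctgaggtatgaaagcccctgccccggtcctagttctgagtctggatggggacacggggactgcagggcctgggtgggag
Il7r: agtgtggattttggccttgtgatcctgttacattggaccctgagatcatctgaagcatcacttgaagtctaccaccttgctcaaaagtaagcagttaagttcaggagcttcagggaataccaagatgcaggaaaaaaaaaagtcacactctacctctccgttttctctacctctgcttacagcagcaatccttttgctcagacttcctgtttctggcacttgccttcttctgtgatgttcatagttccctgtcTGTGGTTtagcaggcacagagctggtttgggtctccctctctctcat
Lta: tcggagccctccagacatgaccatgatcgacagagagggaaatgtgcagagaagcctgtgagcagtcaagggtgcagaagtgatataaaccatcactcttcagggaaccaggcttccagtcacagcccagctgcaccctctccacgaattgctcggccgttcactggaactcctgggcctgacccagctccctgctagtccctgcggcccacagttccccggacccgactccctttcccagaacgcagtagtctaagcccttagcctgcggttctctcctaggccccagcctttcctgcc
Tnf: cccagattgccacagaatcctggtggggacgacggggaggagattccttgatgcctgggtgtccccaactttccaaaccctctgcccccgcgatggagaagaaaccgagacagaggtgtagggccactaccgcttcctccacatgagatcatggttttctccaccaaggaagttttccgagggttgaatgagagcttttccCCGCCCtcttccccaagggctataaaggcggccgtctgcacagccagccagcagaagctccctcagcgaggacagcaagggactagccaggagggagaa
Runx1: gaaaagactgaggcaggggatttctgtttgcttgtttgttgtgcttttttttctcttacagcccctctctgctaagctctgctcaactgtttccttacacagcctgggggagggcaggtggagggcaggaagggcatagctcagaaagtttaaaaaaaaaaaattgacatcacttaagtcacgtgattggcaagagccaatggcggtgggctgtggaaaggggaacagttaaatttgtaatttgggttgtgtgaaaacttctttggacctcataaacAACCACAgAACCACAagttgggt
Tcf7: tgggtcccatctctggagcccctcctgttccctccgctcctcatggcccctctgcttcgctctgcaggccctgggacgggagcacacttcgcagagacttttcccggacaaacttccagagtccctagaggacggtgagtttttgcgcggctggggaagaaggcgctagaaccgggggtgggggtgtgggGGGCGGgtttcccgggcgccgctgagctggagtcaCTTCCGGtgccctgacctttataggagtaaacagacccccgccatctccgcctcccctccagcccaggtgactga
The Il7r promoter holds 1 RUNX match and the Runx1 promoter 2, side by side near the start. Tnf holds 1 GC box, Tcf7 holds 1 GC box and 1 ETS match, and Ltb and Lta hold none of the words. The Tcf7 island begins at 52282801 and overlaps only the upstream edge of the printed promoter, so both marked words there lie outside the island. Another Tcf7 promoter, chr11:52282965-52283264, lies whole inside that island and holds 2 GC boxes. The islands on these promoters had 87 against 23 reads (peak against control library) at Ltb, 85 against 32 at Il7r, 84 against 31 on an island shared by Lta and Tnf, 57 against 13 at Runx1 and 33 against 4 at Tcf7. The authors' deposited fold, the ratio of peak reads to scaled control reads, was highest of the 5 islands at Tcf7, 4.13, and lowest at Il7r, 1.33.

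Islands of chains had peak-library reads at the density of other islands and slightly more control-library reads. Summed over the 2984 member islands, 65276 peak-library reads stood against 21766 control-library reads. The pooled fold, the sum of peak reads divided by 1.997 times the sum of control reads (the factor by which the caller scaled its control), was 1.50 (95% interval 1.48 to 1.53). Islands that stood alone had 1.67 (1.66 to 1.69, 8144 islands), islands in chains of 2 to 4 had 1.62 (1.61 to 1.64, 8385 islands), and all 19513 had 1.62 (1.61 to 1.63). Without the upper limit of reads, lone islands had 1.43, islands in chains of 2 to 4 had 1.35 and members had 1.49. The lower value of members thus depended on the limit. Intervals are exact conditional binomial ones and cover counting error only, since reads copied by PCR are not independent molecules. Peak-library density was 11.8 reads per kb of member island, 11.9 in chains of 2 to 4 and 12.2 in lone islands. Control-library density was 3.95, 3.67 and 3.66 reads per kb in the same order. Longer chains did not stand out further: the pooled fold was 1.53 in chains of exactly 5 islands, 1.49 at 6, 1.51 at 7 to 9 and 1.46 (1.41 to 1.51) at 10 or more.

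The authors' FDR and fold come from the same reads, so they restate the lower fold of members under the upper limit. Of the 2984 member islands, 1717 had an FDR of 0.05 or less, which is 57.5% (55.7% to 59.3%, Clopper-Pearson) against 62.6% of all islands used and 65.0% of lone ones. A fold below 1 was listed for 12.4% of members against 10.1% of all, and a fold of 2 or more for 1194 members, 40.0%, against 47.0% of all. Islands without a single control-library read made up 3.49% of members and 6.97% of lone islands. Because islands were called on the peak library, these shares describe called islands and not all chromatin.

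Member islands lay less often at the ends of genes. Within 1 kb of either end of a protein-coding gene were 28.0% of them (26.4% to 29.7%), against 38.6% of islands in chains of 2 to 4 and 50.8% of lone islands. Inside a gene and away from its ends lay 46.9% of members, and 25.1% lay outside genes. The rule chose members by spacing, and its part in their lower share at gene ends was not tested. With the upper limit of reads, islands at gene ends had lower folds than others in every class, so the classes were also compared by place. At gene ends the pooled fold was 1.31 in chains of 5 or more, 1.43 in chains of 2 to 4 and 1.51 in lone islands, with control-library densities of 5.07, 4.59 and 4.34 reads per kb. Inside genes it was 1.67, 1.84 and 2.01, and outside genes 1.59, 1.86 and 1.97. Under the upper limit, the lower fold of members was thus seen in all 3 places, and its spread between libraries was not tested. Outside genes it depended on the upper limit of reads: with no limit, lone islands there had 1.18 (1.16 to 1.19) and members 1.59 (1.54 to 1.65), and over all places lone islands had 1.43 (1.42 to 1.44) and members 1.49 (1.47 to 1.52). At gene ends and inside genes members stayed lower without the limit, 1.31 against 1.51 and 1.64 against 1.89. The order of places depended on the limit too. Without it, islands outside genes had lower folds than those at gene ends when alone, 1.18 against 1.51. In chains of 2 to 4 these values were 1.07 against 1.43. Width moved with the fold too: among islands over 2000 bp the values were 1.38, 1.46 and 1.51, among those of 1001 to 2000 bp 1.58, 1.69 and 1.72, and among those up to 1000 bp 1.81, 1.92 and 1.90. The part of place, width and control-library density in the lower fold was not tested further.

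**Figure D1:**
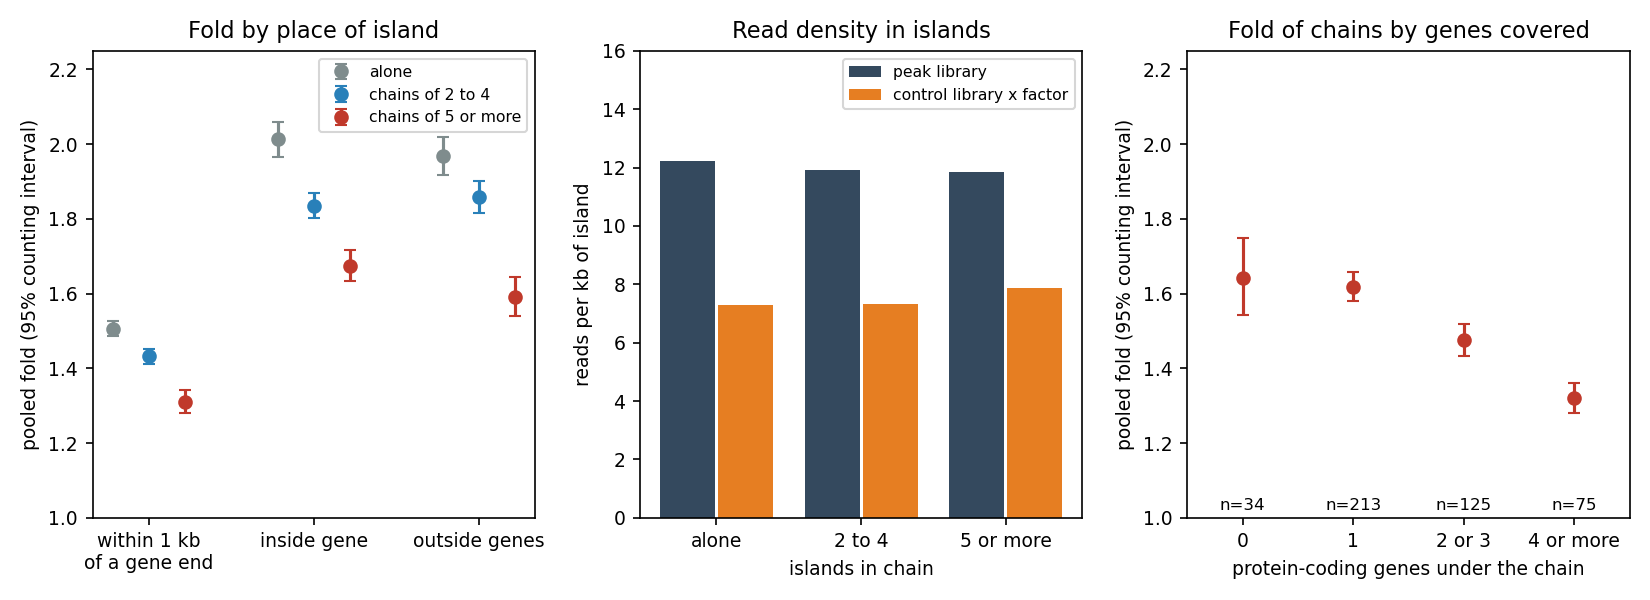
Left, pooled fold with its 95% counting interval for islands alone, in chains of 2 to 4 and in chains of 5 or more, by place; middle, reads per kb of island in the peak library and in the control library times the scaling factor; right, pooled fold of chains by the number of protein-coding genes under them, with the number of chains. With the upper limit of reads, members lie lowest in each place, which does not hold outside genes without it, and chains over 4 or more genes have the lowest fold, 1.32.

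A chain was typically a 33 kb stretch with 6 islands. Spans had a median of 33400 bp (quartiles 26000 and 43300 bp, extremes 9600 and 126200 bp), added up to 16.5 Mb and were covered by islands over 33.3% of their length. Summed reads ran from 55 to 743 in the peak library (median 126) and from 6 to 283 in the control library (median 40). The median pooled fold over the 447 chains was 1.54, with quartiles of 1.31 and 1.91 and extremes of 0.865 and 5.09. The counting interval lay above 1 in 291 chains, included 1 in 156 and lay below 1 in none, while the fold itself was below 1 in 10. With the read sums of the whole table set equal in place of the caller's factor, 111 intervals lay above 1, 331 included 1 and 5 lay below. Those sums count the islands left out as well, 483771 against 189291 reads, whereas the islands used held 386196 against 119307. Equal sums over the islands used alone were not tried. Against the value of all islands, 1.62, the interval lay above in 32 chains and below in 63. At the limits of the rule, the largest member island had 193 peak-library reads, and the largest joined gap was 12400 bp. Only 4 islands had at least 150 reads and stayed under the limit, 1 of them in a chain, and none of the 15 islands above the limit lay inside a span.

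Within a chain the islands were uneven. The island with most reads held a median of 29.9% of the chain's peak-library reads, from 11.3% in the chain at Kifc1 to 60.5% in the chain at Klf13. Every island had an FDR of 0.05 or less in 24 chains, and no island did in 3 (at Trim17, Chrna9 and Hinfp). At least 1 island with a fold below 1 occurred in 231 chains, and at least 1 island without control reads in 87. The median over chains of the lowest island fold was 0.968. Such unevenness can be seen in the reads along 5 chains.

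**Figure D2:**
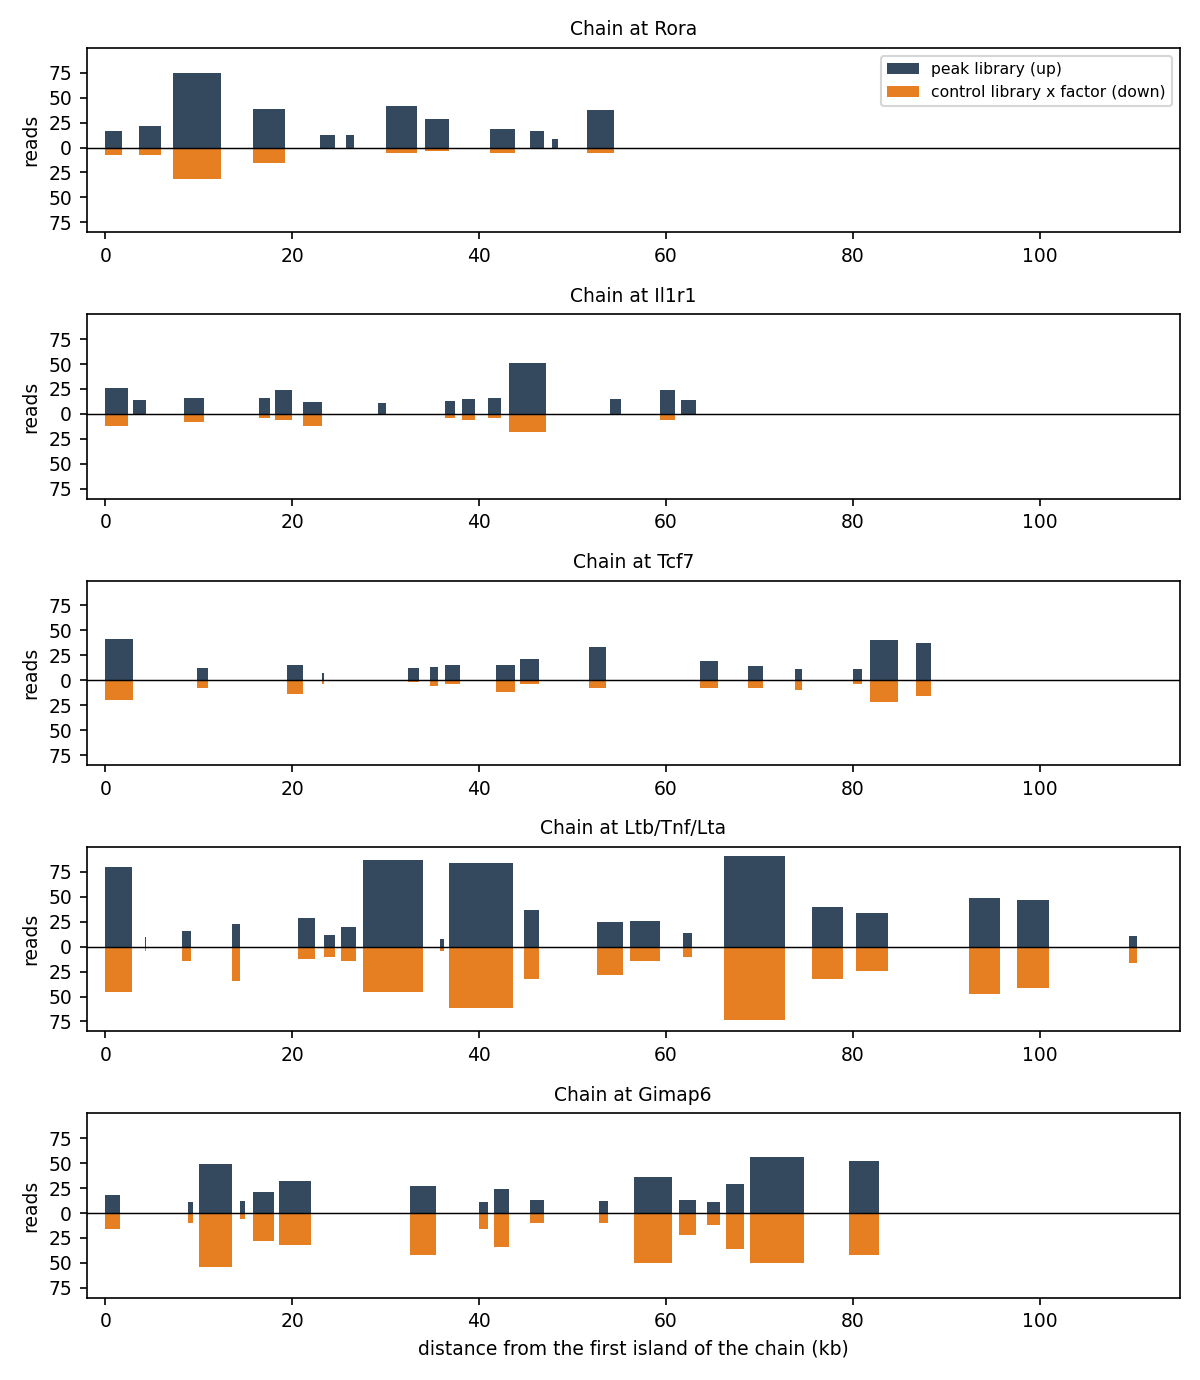
Reads of each island along the chains at Rora, Il1r1, Tcf7, Ltb/Tnf/Lta and Gimap6, peak library upwards and control library times the scaling factor downwards, against distance from the first island in kb; bar width is island width. At Rora and Il1r1 the downward bars are small or missing, whereas at Gimap6 they are of similar height to the upward ones, and the sums give 0.910.

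Summed reads ranked chains alike in both libraries, which is partly built in, since both sums run over the same islands. The peak-library sum had a Spearman's rho of 0.72 with the number of islands. The 45 chains with most peak-library reads and the 45 with most control-library reads had 34 in common, 75.6% of each. Across the 447 chains, which share both libraries, Pearson's r of the log2 sums was 0.87 and Spearman's rho 0.863. By contrast, 2 of the 45 chains with most peak-library reads (4.44%) were among the 45 with the highest pooled fold. Spearman's rho with the pooled fold was -0.70 for control-library reads per kb of span, -0.14 for peak-library reads per kb, -0.28 for the number of genes and -0.07 for the number of islands. The first of these shares its control reads with the fold, so part of it is built in.

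**Figure D3:**
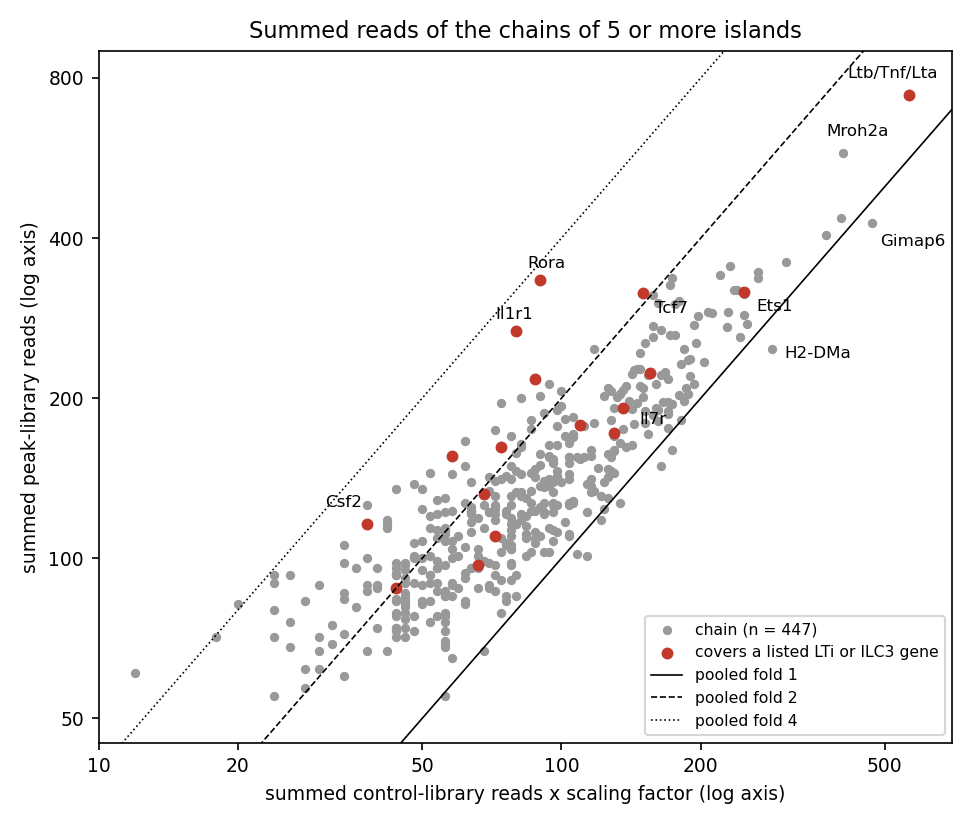
Summed peak-library reads of each chain against summed control-library reads times the scaling factor, both on log axes, with lines at pooled folds of 1, 2 and 4; red points are chains over a gene of the LTi and ILC3 lists. Most chains lie between the lines for 1 and 2, with Rora and Il1r1 among the exceptions above and Gimap6 and H2-DMa below 1.

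The number of genes under a chain moved with its fold. The 34 chains over no protein-coding gene had a pooled fold of 1.64 (1.54 to 1.75), the 213 over 1 gene 1.62, the 125 over 2 or 3 genes 1.47 and the 75 over 4 or more 1.32 (1.28 to 1.36). The share of islands with an FDR of 0.05 or less went from 61.6% and 61.1% to 57.6% and 47.5% in that order. Gene-end islands made up 0%, 13.1%, 36.3% and 62.2% of them. Away from gene ends the chains over more genes were lower too, with intervals that overlap between neighbouring classes: islands inside genes had 1.70 in chains over 1 gene, 1.66 over 2 or 3 and 1.54 (1.41 to 1.67) over 4 or more, and islands outside genes had 1.70, 1.51 and 1.37, beside 1.64 in chains over no gene. The 32 chains whose interval lay above 1.62 had no gene or 1 gene in 68.8% of cases and 4 or more in 9.38%. For the 63 chains below, the shares were 31.7% and 38.1%.

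Genes of LTi cells were crossed by chains more often than genes at large, but they also hold islands more often. The listed factors and receptors, though not the effectors, are also longer. The span of a chain crossed 912 of 21887 protein-coding genes (4.17%). Of the 9990 genes with any island, 885 (8.86%) were crossed. It crossed 8 of 20 listed transcription factors of LTi cells and ILC3 (group 3 innate lymphoid cells), 7 of 16 receptors and 4 of 14 effector molecules. All 20 factors, 13 of the receptors and 9 of the effectors held an island at all. The median gene length was 69384 bp for the factors, 29543 bp for the receptors and 5353 bp for the effectors, against 17169 bp for all genes. Length and the presence of islands in these counts were not separated. The 17 chains over these genes had a pooled fold of 1.76 (1.64 to 1.88) and a median of 1.94, beside 1.50 and 1.54 over all 447 chains. The lists were chosen with earlier results of these data known. The part of that choice in these counts and folds was not tested. Of the 17, the interval lay above 1 in 15, above 1.62 in 6 and below 1.62 in 2.

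**Figure D4:**
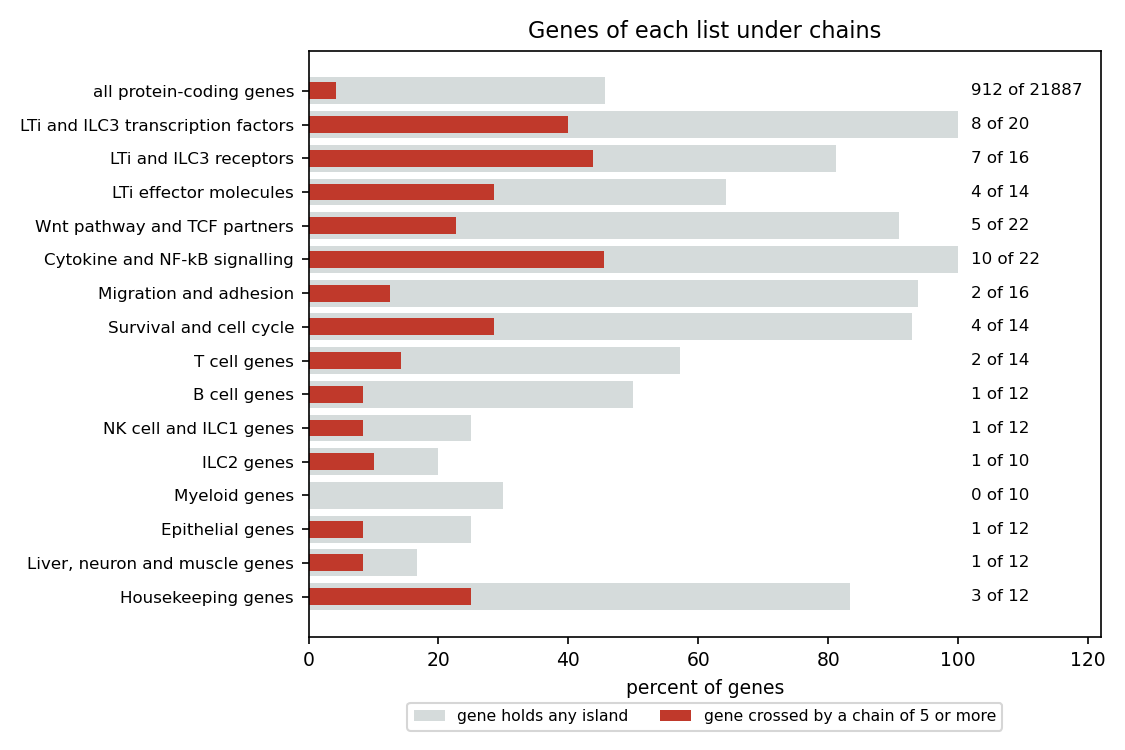
Percent of the genes of each list crossed by a chain of 5 or more islands (red) and holding any island (grey), with the counts crossed at the right. Cytokine signalling genes, receptors and transcription factors have the largest red shares, between 40 and 45.5 percent, against 4.17 percent of all genes.

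Among the transcription factors, Rora had the highest fold. It encodes an orphan nuclear receptor of the ROR family, and its chain lay at chr9:69288201-69342600 inside the gene. The 12 islands held 333 peak-library and 45 control-library reads, a fold of 3.71 (2.71 to 5.18). All 12 islands had an FDR of 0.05 or less. The strongest by reads had 75 against 16 and a fold of 2.35, and 2 islands had 13 and 17 reads against none, at least 2.17-fold and 2.84-fold higher if a count of 0 is taken as 3 control reads. Further along the chain, 42 against 3, 29 against 2 and 38 against 3 reads gave folds of 7.01, 7.26 and 6.34. Of the 10 islands with control reads none had a fold under 2.13. The interval overlapped those of the Tcf7 and Runx1 chains.

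The Tcf7 chain, over the gene for the antibody's own target, had 16 islands at chr11:52231001-52319400. Its sums were 316 against 75, which gives 2.11 (1.64 to 2.75), and 11 islands had an FDR of 0.05 or less. It ran from Skp1, a subunit of SCF ubiquitin ligases, across the whole of Tcf7 and beyond it. The 8 islands on Tcf7 had 131 against 27 reads, 2.43 (1.60 to 3.83). The island on the promoters held 33 against 4 reads, and 2 islands inside the gene had 21 against 2 and 12 against 1. Beyond the gene, 6 islands outside genes continued the chain, the last 2 with 40 against 11 and 37 against 8 reads. Both libraries had reads on the gene, and the table does not show whether the deleted part of Tcf7 was lost in either.

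Runx1 and Runx3 encode DNA-binding partners of CBF-beta. The Runx1 chain, chr16:92801601-92827600, had 5 islands of 13, 14, 36, 42 and 57 reads against 2, 3, 7, 12 and 13, all with an FDR of 0.05 or less. Its pooled fold was 2.19 (1.53 to 3.22). The chain at Runx3 (5 islands, 4 of them on the gene, chr4:135149601-135179600) had 97 against 33 reads, 1.47 (0.983 to 2.26), with 2 islands under that FDR. A second chain with no gene in it lay 18645 bp from Runx3, with 7 islands and 124 against 25 reads, 2.48. The intervals of both Runx3 chains overlap, so neither is shown to be stronger.

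At Batf, Ikzf3 and Ets1 the folds ran from 2.00 down to 1.28. Batf, an AP-1 family factor, had 5 islands, 88 against 22 reads and 2.00 (1.24 to 3.36), with 2 islands of 10 and 12 reads against none. Ikzf3, the Ikaros family member Aiolos, had 7 islands and 223 against 78 reads, 1.43 (1.10 to 1.88). In that chain 1 island with 94 against 25 reads and 1 with 22 against 2 stood beside 3 islands whose fold was below 1. Ets1, the founding ETS factor, had 10 islands inside the gene and 317 against 124 reads, but a fold of 1.28 (1.04 to 1.59), and 4 of the 10 islands passed the FDR. Thus Ets1 had nearly as many peak-library reads as Rora and 124 instead of 45 control-library reads.

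Cytokine receptor genes gave the next group. Il1r1, the signalling receptor for IL-1, had 14 islands at chr1:40224401-40287600, all inside the gene, and held 267 peak-library reads against 40, a fold of 3.34 (2.39 to 4.79). In 13 of them the FDR was 0.05 or less. Its largest island had 51 against 9 reads, and 4 islands with 11 to 15 reads had no control read. Further along the chromosome, the chain over Il18r1 (a subunit of the IL-18 receptor) began at the end of Il1rl1, the IL-33 receptor gene. Its 7 islands had 156 against 29 reads, 2.69 (1.80 to 4.15), and the island shared by both genes had 32 against 5. Il23r, which encodes the specific chain of the IL-23 receptor, had 6 islands, 132 against 34 reads and 1.94 (1.33 to 2.92), led in fold by islands of 20 against 2 and 12 against 1.

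For Il7r and Il2ra, which encode receptor chains for IL-7 and IL-2, control reads were more frequent. The 5 islands at Il7r (chr15:9506601-9536200) summed to 192 against 68 reads, 1.41 (1.07 to 1.89). The largest island, 7800 bp wide at the promoter, had 85 against 32, while 2 islands inside the gene with 16 against 4 and 16 against 3 had folds of 2.00 and 2.67. Il2ra had 7 islands and 172 against 65 reads, 1.33 (0.991 to 1.79). Cxcr5, the receptor for the follicular chemokine CXCL13, shared a chain of 9 islands with Bcl9l, a beta-catenin cofactor. That chain had 178 against 55 reads, 1.62 (1.19 to 2.23), and 3 of its islands lay outside both genes beyond Cxcr5, with 16, 14 and 44 reads against 5, 2 and 9. Itga4, an integrin subunit for homing to gut tissue, had 6 islands and 1.53 (1.04 to 2.30).

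The effector genes lay in 2 chains, 1 above and 1 below the value of all islands. Csf2 encodes the cytokine GM-CSF, and its chain at chr11:54191801-54250000 had 7 islands, of which 6 lay outside genes and 1 on the Csf2 promoter. They summed to 116 against 19, or 3.06 (1.87 to 5.26), and all 7 islands had an FDR of 0.05 or less. Its strongest islands by fold were distal ones, a pair with 15 against 1 each and 1 with 24 against 2, whereas the promoter island had 12 against 3. A further distal pair with 18 against 5 each had a fold of 1.80, below the 2.00 of the promoter island. The counting intervals of all 7 islands overlap. The chain over Ltb, Tnf and Lta, chr17:35164801-35275200, had most reads of all 447 chains in both libraries, 743 against 283, in 20 islands over 10 genes. Its fold was 1.31 (1.15 to 1.51), below the 1.62 of all islands, and 9 of 20 islands passed the FDR. The Ltb island led among those of the 3 cytokine genes with 87 against 23 reads. The largest island of the chain, between Nfkbil1 and Atp6v1g2, had 91 against 37 reads and a fold of 1.23. Islands at the MHC class I gene H2-D1 and at Ddx39b, an RNA helicase gene, had 47 against 21 and 40 against 16.

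Of the other lists, cytokine and NF-kB signalling had most genes crossed, 10 of 22 in 9 chains, with a pooled fold of 1.53 (1.34 to 1.76). Folds given here for a gene are those of its whole chain. The highest was at Socs1, a feedback inhibitor of JAK kinases, 2.64 (1.60 to 4.56) from 100 against 19 reads in 5 islands. Only 1 of these islands lay on Socs1 itself, with 31 against 9 reads, 1.72 (0.802 to 4.12). Stat5b carried 2 chains, 101 against 26 reads (1.95) and 85 against 28 (1.52), the latter reaching Stat5a. Tyk2 had 1.92, Rela 1.54, Cish 1.39, Traf1 1.14 and Jak2 1.09. On the gene itself Tyk2, Rela and Traf1 each had a single member island, with folds of 1.60, 1.45 and 0.758. In the Wnt list 5 of 22 genes were crossed, pooled 1.78 (1.52 to 2.10). Pygo2, which reads histone marks within the beta-catenin complex, had 2.05, the ubiquitin ligase Znrf3 2.05 over 9 islands, the TCF relative Lef1 1.83, Bcl9l 1.62 in the chain shared with Cxcr5, and the ligase Rnf43 1.51. Among survival and cell cycle genes 4 of 14 were crossed: Foxo1 (1.73), Bcl2, Mcl1 (1.27) and Ccnd3 (0.910). Bcl2, the anti-apoptotic gene, was the only protein-coding gene crossed by 3 chains, 19 islands in all with 326 against 119 reads and 1.37 (1.11 to 1.71). Of the migration list 2 of 16 were crossed, the hyaluronan receptor gene Cd44 at 2.49 (1.66 to 3.85) and the integrin gene Itgal at 1.26. Pygo2, Mcl1 and Itgal likewise each had a single member island on the gene, with folds of 1.80, 0.882 and 2.13.

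Lists for other cell types had 0 to 2 genes crossed each, and their shares lay above the 4.17% of all genes in each list except the myeloid one. Crossed were 2 of 14 T cell genes (among them Lck at 1.16), 1 of 12 B cell genes (Cd79a at 1.03), 1 of 12 NK cell and ILC1 genes (Klrb1c at 1.90), 1 of 10 ILC2 genes (Il1rl1), 0 of 10 myeloid genes, 1 of 12 epithelial genes (Cldn7 at 1.20) and 1 of 12 genes of liver, neuron and muscle (Myod1 at 1.56). Lck, Cd79a, Klrb1c, Il1rl1, Cldn7 and Myod1 each had a single member island on the gene itself, and the rest of the chain lay on neighbours or between genes. Myeloid genes held any island in 3 of 10 cases, epithelial genes in 3 of 12 and T cell genes in 8 of 14. Housekeeping genes were crossed in 3 of 12 cases (Actb 1.60, Rpl13a 1.40 and Ywhaz 1.36). An island shows released chromatin and not expression, so these counts are no check of the sorted cell type.

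**Figure D5:**
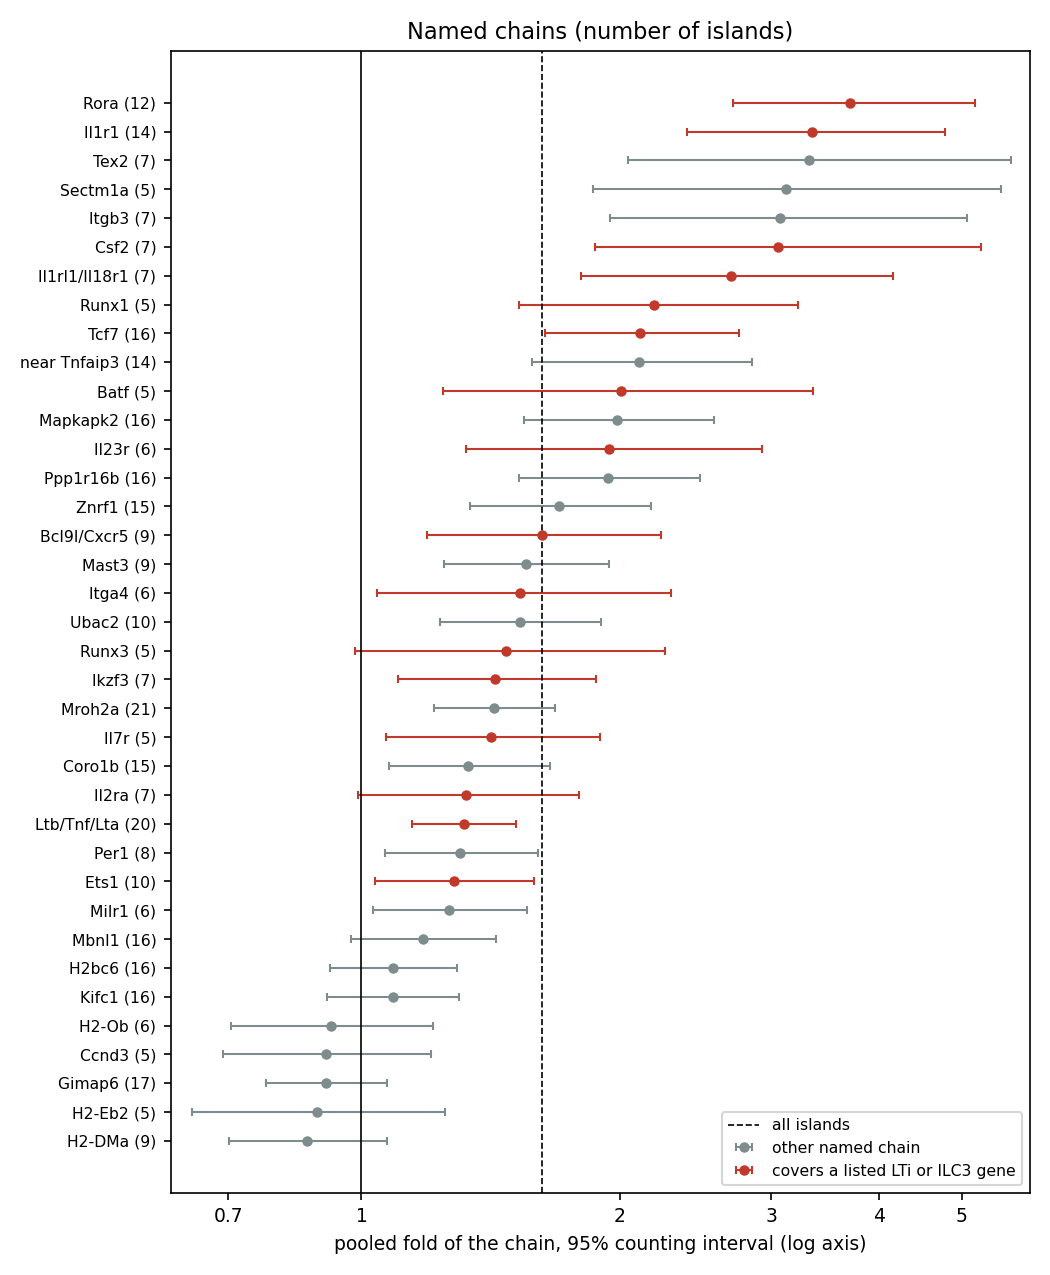
Pooled fold with its 95% counting interval for 37 chains, ordered by fold, with the number of islands in brackets; red marks chains over genes of the LTi and ILC3 lists, the solid line is 1 and the dashed line the value of all islands. Rora and Il1r1 lie highest, and 5 chains lie below 1 with intervals that include it.

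The longest runs of islands were mostly not those with high folds. The chain with most islands, 21, covered the Ugt1a cluster of glucuronidation enzymes on chromosome 1, with Mroh2a, Hjurp and Trpm8, and had 578 against 203 reads, 1.43 (1.21 to 1.68). Chains of 16 islands lay at Mapkapk2, a kinase downstream of p38 (313 against 79 reads, 1.98), at Ppp1r16b, a phosphatase regulator (336 against 87, 1.93), and at Mbnl1, a splicing regulator (360 against 153, 1.18, interval 0.973 to 1.43). Znrf1, a ubiquitin ligase, and Coro1b, an actin-binding coronin, had 15 islands each at 1.70 and 1.33. Peak-library sums above 330 reads were also found at Ubac2 with Gpr183, a receptor for oxysterols (354 against 116), at the clock gene Per1 (346 against 133), at Mast3 with Il12rb1 (341 against 110) and at Milr1 with Ddx5 (336 against 133). In the last of these 1 island of 12000 bp held 193 against 67 reads.

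Other high folds lay at genes outside the LTi lists. With at least 100 peak-library reads these were Tex2 (7 islands, 126 against 19 reads, 3.32), Sectm1a (5 islands, 106 against 17, 3.12) and the integrin beta-3 gene Itgb3 (7 islands, 135 against 22, 3.07). All islands at Tex2 and Itgb3 had an FDR of 0.05 or less. A second chain, which lay mostly over Ern1 and reached Tex2 with 1 island, had 14 islands and 1.71. Among chains with fewer reads, Ss18, a subunit of BAF chromatin remodelling complexes, had the highest fold of all, 5.09, from 61 against 6 reads, with an interval from 2.21 to 14.4. A chain over 4 genes of the Hoxa cluster had 5 islands, 80 against 12 reads and 3.34 (1.81 to 6.73). Further genes whose interval lay above 1.62 were Il2rb, a receptor chain for IL-2 and IL-15 (149 against 31, 2.41), Smad3, a TGF-beta signal transducer (200 against 41, 2.44), and Cd82, a tetraspanin gene (135 against 25, 2.70).

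The 5 lowest folds with at least 100 peak-library reads were at the Gimap cluster, at 3 chains of MHC class II genes and at Ccnd3. The Gimap cluster, GTPase genes of lymphocyte survival, had 17 islands over 6 genes at chr6:48665801-48748600, where 427 peak-library reads stood against 235, or 0.910 (0.774 to 1.07). Only 1 of its islands, with 12 against 3 reads, had an FDR of 0.05 or less. The chain over the class II genes H2-DMa, H2-DMb1, H2-DMb2 and H2-Oa, with the bromodomain gene Brd2 between them, was lowest of all at 0.865 (0.701 to 1.07), from 247 against 143 reads. The island shared by Brd2 and H2-DMa had 98 against 64. H2-Eb2 had 0.887, H2-Ob with H2-Ab1 0.921, and Ccnd3 with Taf8 0.910. Between the Kifc1 and H2-D1 genes, 10 chains with 95 islands filled the MHC region of chromosome 17, pooled 1.14 (1.06 to 1.22). Within it Ehmt2, a histone methyltransferase gene, differed with 89 against 20 reads and 2.23 (1.36 to 3.82). Without these 10 chains the pooled fold of the others was 1.52 (1.50 to 1.55). A histone gene chain on chromosome 13 had 16 islands over 15 genes and 437 against 201 reads, 1.09 (0.919 to 1.29), and the heat shock genes Hspa1a, Hspa1b and Hspa1l had 1.13. Islands on such near-identical genes are uncertain, since the handling of reads that map to several copies is not given in the sources used here.

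Chains over no protein-coding gene lay at a median of 32872 bp from the nearest one (4942 to 198883 bp), 19 of the 34 under 50 kb, and 23 crossed a noncoding gene or gene segment. The largest, 78991 bp from Tnfaip3, an inhibitor of NF-kB signalling, had 14 islands over 118600 bp (chr10:19094401-19213000). It had 248 against 59 reads, 2.11 (1.58 to 2.85), and 11 islands with an FDR of 0.05 or less. In 2 islands 13 reads stood against none. A pair of chains near Fasl, the death ligand gene, had 71 against 12 reads (2.96) and 114 against 26 (2.20). Near Dock10, 5 islands had 93 against 13 reads, 3.58 (2.00 to 6.98). By contrast, the chain over the noncoding RNA Malat1 had 203 against 90 reads and 1.13, that over Lncpint 12 islands and 1.40, and 1 at 143181 bp from Ets1 had 1.23. The constant segments of the T cell receptor beta locus lay under 5 islands with 114 against 34 reads, 1.68.

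Promoters on member islands did not hold the TCF and LEF word more often than others. It occurred in 17 of 703 RefSeq promoters overlapped by a member island, 2.42% (1.41% to 3.84%), in 2.58% of 7410 overlapped by another island and in 3.22% of all 21263. None of the 16 promoters of 12 genes from the LTi lists that a member island overlapped held it, while 4 held the RUNX word, 2 the ETS word, 7 the GC box and 0 the AP-1 word. Over all member-overlapped promoters the ETS word was found in 17.5%, against 22.5% under other islands and 11.6% of all. The GC box was found in 62.3%, 69.4% and 46.2%, the RUNX word in 4.84%, 3.51% and 4.71%, and the AP-1 word in 2.42%, 2.82% and 4.66%. Median GC content was 61.0% in member-overlapped promoters and 61.7% in those under other islands, against 56.3% of all, and its part in these shares was not tested. Of member islands 18.4% lay on a promoter, so these shares say nothing of the letters in the others.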

How the data were processed

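ChIC-seq was done on 2 libraries of mouse LTi cells. Per the labels' protocols, 500 cells per library were fixed in 1% formaldehyde for 10 minutes and digested for 3 minutes at 37 °C. The submitters' processing notes name Bowtie2 2.4.2, SICER 2.0 and the mm10 build, without the caller's settings or how duplicates were treated. Whole read counts in each island for both libraries, the fold (a ratio of peak to scaled control reads), the p-value and the FDR were deposited by the authors. The islands held 483771 peak-library and 189291 control-library reads. Reads outside islands are not in the table, so total depth is unknown. The authors' folds of islands without control reads are not bounds, so a floor of 3 control reads was used for those.

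Positions count from 1. Chains, pooled folds with Clopper-Pearson 95% intervals, gene overlaps (RefSeq, GRCm38.p6, 21887 protein-coding genes without strand or exons) and word matches in 21263 promoters were computed in Python 3.11.15 with numpy 2.4.6, pandas 2.3.3 and scipy 1.17.1. The joining and the intervals were tested on simulated data. With 1 library per group no test was made. All 218 genes of 15 lists matched. Members and lists were chosen with earlier results of these data known. Named by rule were the 10 chains with most islands, the 10 with most peak-library reads, the 5 longest, the 5 highest and 5 lowest folds at 100 or more peak-library reads, and every chain over a gene of the 3 LTi and ILC3 lists. A chain is called by its listed gene, otherwise by the gene with most of its islands. Promoters printed are up to 6 of those lists' genes, those with the TCF and LEF word first and then by island reads. Other chains named were chosen after their values were seen, and 1 chain named by the rule and some listed genes are not reported here. Alternatives changed the gap, the smallest chain, the islands used, the scaling, the gene-end window and the definition of a covered gene.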

Additional observations from a re-analysis of the deposited data

How the results depend on the processing

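The number of chains followed the rule: 139 with gaps up to 5 kb, 716 with 20 kb, 777 for 4 or more islands, 166 for 7 or more and 94 from islands with an FDR of 0.05 or less alone, beside 447. The pooled fold of member islands was 1.48 with 5 kb, 1.54 with 20 kb and 2.31 under the FDR limit. It was 1.17 with the summed reads of the whole table set equal, islands left out included, and 3.00 without scaling. These scalings shift every log2 fold by -0.36 and by 1.00, and they decide whether a chain lies above or below 1. With equal sums 111 chains, not 291, had an interval above 1, and 104, not 10, a fold below 1. The chain at Milr1 went from 1.27 to 0.989, Mbnl1 from 1.18 to 0.921, the histone chain from 1.09 to 0.851 and Kifc1 from 1.09 to 0.850. Members had the lower fold than lone islands under every gap, size and FDR setting and an upper limit of 100 reads, but not without an upper limit, where lone islands had 1.43 and members 1.49. Members at gene ends were 24.3% with a 500 bp window and 33.2% with 2 kb. Genes lying whole inside a chain numbered 446, not 912; listed genes 15, or 21 with gaps up to 5 kb, not 50. No paired analysis was possible because each group has 1 library and the columns carry no replicate number. Counts limit precision: a median member island had 17 against 5 reads.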

Other observations

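Chains were unevenly spread over the chromosomes. Their share of the islands used was 22.6% on chromosome 11 (63 chains), 20.2% on chromosome 19 and 19.8% on chromosome 17, and 7.57% on chromosome 16, 7.83% on chromosome 5 and 2.77% on the X chromosome, which had 1 chain. In 52 cases the next chain began within 50 kb. Besides Bcl2, 11 protein-coding genes were crossed by 2 chains, among them Ankrd11, a chromatin regulator gene, whose chains had 24 islands and 517 against 171 reads, 1.51 (1.27 to 1.81). The 2 chains at Tg, the thyroglobulin gene, had 20 islands and 417 against 134 reads, 1.56 (1.28 to 1.91).

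Of 38 microRNA hairpins inside chains, 10 lay on a member island. Mir142, a microRNA gene of blood cells, lay on an island with 60 against 31 reads in a chain of 5 islands with a fold of 1.15 (0.907 to 1.46). The TCF and LEF word was found in 17 promoters on member islands. Among these, the Zfp148 island had 12 against 1 reads and the Coq10a island 41 against 9, while the islands at H2-Eb1 and Vps52 had 37 against 24 and 28 against 20, folds of 0.772 and 0.701.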
